A study of Mus musculus with 2 samples.

Results

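The genes described here are 10 genes of MHC class I antigen presentation: the heavy chains H2-K1 and H2-D1, the light chain B2m, the peptide loading genes Tap1, Tap2 and Tapbp, the immunoproteasome subunits Psmb8, Psmb9 and Psmb10, and the proteasome activator subunit Psme1. They were chosen by name, though with earlier results of these arrays known. All 10 were found among the 22911 genes that could be named on the arrays. They were read by 14 probes, and each of these was well above background on both arrays. LKS+ cells, which are mouse bone marrow cells without lineage markers but with c-Kit and Sca-1 and include the hematopoietic stem and progenitor cells (HSPCs), were propagated without serum in medium that held stem cell factor at 100 ng/ml and both IL-6 and IL-3 at 10 ng/ml. The cells were then given extracellular vesicles (EVs) of the spleen (SP) at 150 μg/ml for 24 h, and their RNA was labeled with Cy3 for 1 Agilent array per culture. In 1 culture the EVs came from the SP of chronic myeloid leukemia (CML) mice, which carried BCR-ABL-transduced cells and, by the methods, had been irradiated before the SP was taken. In the other culture they came from the SP of normal mice, for which no irradiation is described, so that effects of leukemia and of irradiation cannot be told apart. The LKS+ cells were from WT mice, and which of the 2 strains of the study gave them is not given in the sources used here.

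MHC class I molecules display peptides from inside the cell to CD8+ T cells. Proteins are cut by the proteasome, the peptides are carried into the endoplasmic reticulum by the TAP transporter, and tapasin holds the empty heavy chain and B2m at the transporter until a peptide is bound. Interferons are known to induce most of these genes, and the immunoproteasome subunits replace the constitutive catalytic subunits when they are made. Hematopoietic cells carry class I molecules widely, and the heavy chains, TAP, tapasin and some of the immunoproteasome genes lie together in the MHC of mouse chromosome 17, where 7 of the 10 genes are found.

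Among the sequences before the transcription starts of these genes, 5 stretches are shown because each holds, before the start, a match to at least 1 of 4 motifs that were searched. They are from RefSeq on GRCm38.p6, and each is written 5′ to 3′ on the strand of the gene. The strain of the cells on the arrays is not given, and whether their DNA holds the same letters was not tested. Capitals mark matches to the interferon-stimulated response element (GAAA, any pair of bases, then GAAA again), to TTCNNNGAA (gamma-activated site), to the NF-kB consensus or to TGACG, a core of the class I site alpha, on either strand.
H2-K1 (chr17:34000378-34000477, minus strand, 130 to 31 bases before the start): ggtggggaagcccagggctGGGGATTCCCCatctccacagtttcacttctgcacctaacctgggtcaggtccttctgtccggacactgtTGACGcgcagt
H2-D1 (chr17:35262904-35263003, plus strand, 190 to 91 bases before the start): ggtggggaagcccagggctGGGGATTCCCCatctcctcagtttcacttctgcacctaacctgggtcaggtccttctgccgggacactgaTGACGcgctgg
B2m (chr2:122147527-122147626, plus strand, 160 to 61 bases before the start): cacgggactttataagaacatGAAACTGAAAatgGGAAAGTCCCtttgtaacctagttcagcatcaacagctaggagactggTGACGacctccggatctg
Tap1 and Psmb9 (chr17:34187331-34187555, plus strand, the whole stretch between the 2 starts): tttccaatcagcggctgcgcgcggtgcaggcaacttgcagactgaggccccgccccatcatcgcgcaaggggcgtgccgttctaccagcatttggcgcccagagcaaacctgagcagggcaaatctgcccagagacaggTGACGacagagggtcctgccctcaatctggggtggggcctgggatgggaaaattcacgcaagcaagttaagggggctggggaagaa
Psmb8 (chr17:34198078-34198127, plus strand, 117 to 68 bases before the start): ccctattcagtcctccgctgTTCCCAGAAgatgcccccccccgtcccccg
The stretches of H2-K1 and H2-D1 had the same letter at 94 of 100 positions, with the NF-kB match and TGACG at the same distance from each other. Tap1 and Psmb9 are transcribed away from each other, and 225 bases lie between their starts. A promoter window of 250 bases before to 50 bases after the start was found for 9 of the 10 genes, and Tap2 was without one. Of these 9, the interferon-stimulated response element was matched in 2 (B2m and, after the start, Psme1), the gamma-activated site in 1 (Psmb8), the NF-kB consensus in 3 (B2m, H2-K1 and H2-D1) and TGACG in 5. Over 32851 promoter windows of the same length, the shares with a match were 3.44%, 8.3%, 8.46% and 20.8%. The TGACG counted for Tap1 and that counted for Psmb9 are the same letters between their starts. In B2m, the interferon-stimulated response element lay 139 bases and the NF-kB match 126 bases before the start, without overlap, while the H2-K1 and H2-D1 windows each held 2 overlapping NF-kB matches. These matches describe letters in a window and say nothing of binding. Only the fixed patterns were searched, so that looser forms of a motif would stand unmarked.

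Signals of the class I and immunoproteasome genes were high with EVs of either source and nearly equal between them. Of the 10 genes, 9 were higher and 1 was lower with CML EVs, but none was at least 25% higher or, which is the same fold, at least 20% lower. Over 13412 genes well above background on both arrays, 5.01% were at least 25% higher and 5.25% at least 20% lower, so that a list of 10 with none of either kind does not stand apart by this count. Ratios are CML EVs over control EVs of the scaled signal. The median log2 ratio of the 10 genes was 0.05 (1.03-fold), and the ratios lay between -0.03 and 0.19. The 13412 genes had a median of 0.01, with 52% of them higher and 48% lower. With 1 array per condition there was no replicate check, no test across samples was made, and the values describe these 2 cultures.

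Bright genes as a whole lay slightly above 0, so that the members were set beside genes of their own signal range. In this range, which is a mean log2 signal between 11.36 and 15.50, there were 3030 genes with a median log2 ratio of 0.03, and 64.1% of them were higher with CML EVs. From the 5th to the 95th percentile, their log2 ratios ran from -0.13 to 0.22, and all 10 members lay within these limits. At least 25% higher were 2.24% of these genes, and 0.363% were at least 20% lower. The spread that the arrays themselves hold was taken from 65 probes of the same signal range that were placed on each array several times: the SD of the log2 ratio between their spots had a median of 0.04, with values from 0.01 to 0.08. It covers neither cultures nor EV preparations. The ratios of 4 members (B2m, Psmb8, Psmb10 and Psme1) were within this median SD, 8 were within 2 such SDs, and only Tapbp and Psmb9 were beyond. The scanner software gave each spot a wider error, which comes to 0.20 on the log2 ratio of every member, and by this measure all 10 ratios were within 1 error of 0.

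**Figure D1:**
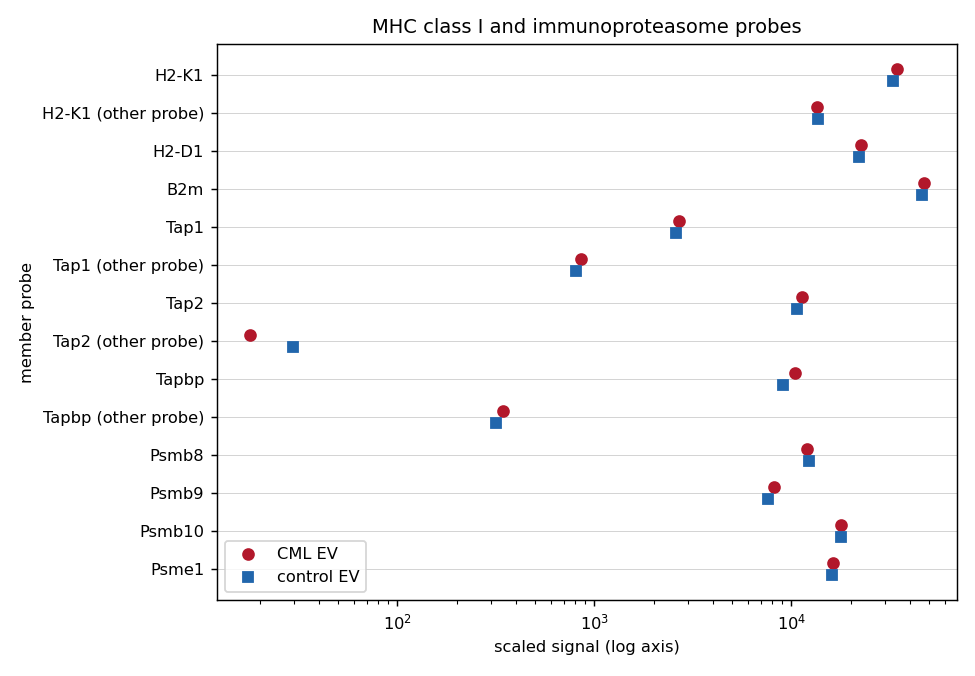
Scaled signal (log axis) of each of the 14 probes with CML EVs (red circles) and control EVs (blue squares), 1 array each; "other probe" marks those not used for the gene's value. The pairs nearly coincide except for the dim other probe of Tap2, at 17.9 with CML EVs and 29.5 with control EVs.

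The heavy chains bind the peptide and are recognized by T cells. H2-K1 had a scaled signal of 34192 with CML EVs and 32812 with control EVs, or 1.04-fold, whereas its other probe had 13448 with CML EVs and 13648 with control EVs, a log2 ratio of -0.02. The probes of H2-K1 thus lay on either side of 0. H2-D1, with 1 probe, had signals of 22655 with CML EVs and 22024 with control EVs, which is 1.03-fold. B2m, the light chain shared by the class I molecules, had signals of 46938 with CML EVs and 45996 with control EVs, and its log2 ratio of 0.03 was within the median SD between spots. Class I heavy chain genes resemble each other closely, and which transcripts of the family each probe binds was not tested, so that single heavy chain values are uncertain.

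All 3 peptide loading genes were above 0, and Tapbp had the highest ratio of the 10 genes. This gene, which encodes tapasin, had signals of 10403 with CML EVs and 9100 with control EVs, or 1.14-fold (log2 ratio 0.19), and its other probe, with 342 with CML EVs and 317 with control EVs, gave a log2 ratio of 0.11 in the same direction. Its ratio stood at the 92.7 percentile of genes in the signal range of the members. It was the single member at least 1.1-fold higher, as were 17.3% of the 13412 genes well above background and 14.7% of genes of this range. Tap1, a subunit of the peptide transporter, had signals of 2675 with CML EVs and 2581 with control EVs (log2 ratio 0.05), and its other probe gave 0.09. Tap2, the partner subunit, had signals of 11272 with CML EVs and 10680 with control EVs, with a log2 ratio of 0.08. The other probe of Tap2 was dim, at 17.9 with CML EVs and 29.5 with control EVs, and its log2 ratio of -0.72 was the lowest of the 14 probes. Thus both probes of Tap1 and of Tapbp lay above 0, and those of Tap2 had opposite signs.

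The immunoproteasome subunits differed in sign among themselves by small amounts. Psmb8 was the single member below 0, with signals of 11986 with CML EVs and 12230 with control EVs (log2 ratio -0.03). Psmb9, which shares its upstream stretch with Tap1, had signals of 8162 with CML EVs and 7599 with control EVs, or 1.07-fold (log2 ratio 0.10), and stood at the 77.9 percentile of genes in its signal range. Psmb10 had 17764 with CML EVs and 17740 with control EVs, with a log2 ratio of 0.00. These 3 subunits are the catalytic ones of the immunoproteasome, and each was read by 1 probe. Psme1, a subunit of the activator that caps the proteasome and is itself induced by interferon gamma, had signals of 16218 with CML EVs and 16079 with control EVs, or 1.01-fold. The constitutive catalytic subunits that these replace, Psmb5, Psmb6 and Psmb7, had log2 ratios of 0.07, 0.13 and 0.03. Their median was 0.07, and that of the 3 immunoproteasome subunits was 0.00.

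**Figure D2:**
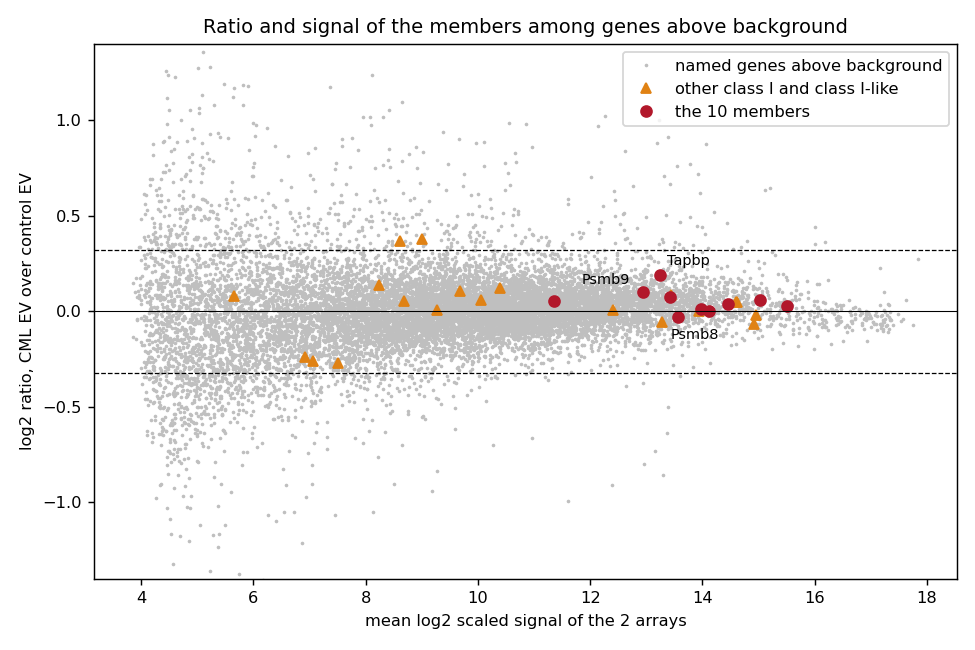
Vertical axis: log2 ratio, CML EV over control EV. Horizontal axis: log2 scaled signal averaged over the 2 arrays. Grey points are the 13412 named genes measured above background on each array, red circles the 10 members and orange triangles other class I and class I-like genes; dashed lines mark 25% higher and 20% lower, and 30 genes lie beyond the vertical axis. All red points lie between the dashed lines, with Tapbp highest at 0.19 and Psmb8 lowest at -0.03.

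Other class I and class I-like heavy chain genes varied more than the members, mainly where signals were low. Of 40 such genes, 34 had a named probe and 20 were well above background on both arrays, of which 14 were higher and 6 lower, with a median log2 ratio of 0.05. Of the 20, 15 are H2 genes, and 11 of these were higher and 4 lower. At least 25% higher were 2 of the 20 and at least 20% lower none, beside 5.01% and 5.25% of the 13412 genes. One of them was H2-T24, a nonclassical class I gene, with signals of 587 with CML EVs and 452 with control EVs (1.30-fold), with 0.54 on the log2 scale by its other probe. The other was Hfe, whose product controls iron uptake, with signals of 444 with CML EVs and 344 with control EVs (1.29-fold). Raet1e, a class I-like ligand of the NKG2D receptor, had a log2 ratio of 0.14. The lowest ratios were those of Fcgrt, the neonatal Fc receptor, at -0.27, H2-T3 at -0.26 and Mr1, which presents vitamin B metabolites, at -0.24. These were dim, with signals between 112 and 167 with CML EVs and between 132 and 201 with control EVs, and another probe of Mr1 gave 0.09. The remaining 14 genes with a named probe, among them most H2-M genes, were not well above background on either array.

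Genes of peptide trimming and of folding in the endoplasmic reticulum were mostly higher. Of 15 such genes, 12 were higher and 3 lower, and the median log2 ratio was 0.08. Of the 13412 genes 52% were higher, and of genes in the signal range of the members 64.1%. None of the 15 was at least 25% higher or 20% lower, beside 5.01% and 5.25% of the 13412 genes. The highest were Tapbpl, a relative of tapasin that edits peptides, at 1.22-fold (signals of 524 with CML EVs and 428 with control EVs), the folding sensor Uggt1 at 1.22-fold and calreticulin (Calr), a chaperone of the loading complex, at 1.18-fold. Both probes of Uggt1 were above 0, at 0.28 and 0.14. Lower were Erap1, the aminopeptidase that trims peptides in the endoplasmic reticulum, with a log2 ratio of -0.28 at signals of only 70.0 with CML EVs and 85.1 with control EVs, and the cytosolic peptidases Thop1 at -0.10 and Lap3 at -0.03.

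Of 9 measured genes for proteasome activators and assembly factors 5 were higher and 4 lower, with a median log2 ratio of 0.02. None was at least 25% higher or 20% lower, beside 5.01% and 5.25% of the 13412 genes. The highest was Psme4, an activator, at 1.24-fold, but its other probe gave a log2 ratio of -0.05. Psme2b, a near copy of the partner of Psme1, had a log2 ratio of 0.07, with signals of 28843 with CML EVs and 27556 with control EVs. Psme2 itself had no named probe, and whether the Psme2b probes also bind its transcripts was not tested. Psme3, which forms a nuclear activator, had a log2 ratio of -0.00. The assembly factor Pomp had 0.02, Psmg1 0.05, Psmg2 -0.09, Psmg3 -0.12, Psmg4 0.02 and the inhibitor Psmf1 -0.09. The other probe gave -0.04 for Psmg1 and 0.03 for Psmf1.

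The regulators of class I transcription lay on both sides of 0, with 8 of 17 higher, 9 lower and a median log2 ratio of -0.00. Nlrc5, the class I transactivator, had signals of 547 with CML EVs and 546 with control EVs, a log2 ratio of 0.00, and another of its probes gave -0.07. Of the interferon signaling factors, Stat2 was 1.21-fold higher by the probe used and had a log2 ratio of -0.24 by another. Irf9 had a log2 ratio of -0.00 and 0.19 by another probe, Irf1 0.05, Irf2 -0.08 and Irf8 0.13. At least 20% lower were 2 of the 17 genes, beside 5.25% of the 13412 genes, and none was at least 25% higher, beside 5.01%. The lower ones were Nfyb, 1.35-fold lower, of which another probe gave -0.08, and Rfx5, 1.27-fold lower, with signals of only 39.8 with CML EVs and 50.7 with control EVs. Both encode factors that bind class I and class II promoters. Their partners Rfxap, Rfxank, Nfya and Nfyc had log2 ratios of 0.16, -0.02, -0.01 and 0.08, and Rela, Nfkb1, Creb1 and Ctcf had -0.12, -0.08, 0.05 and -0.12. Another probe gave 0.10 for Rela and -0.11 for Nfyc, and the 4 probes of Creb1 ran from -0.24 to 0.16.

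**Figure D3:**
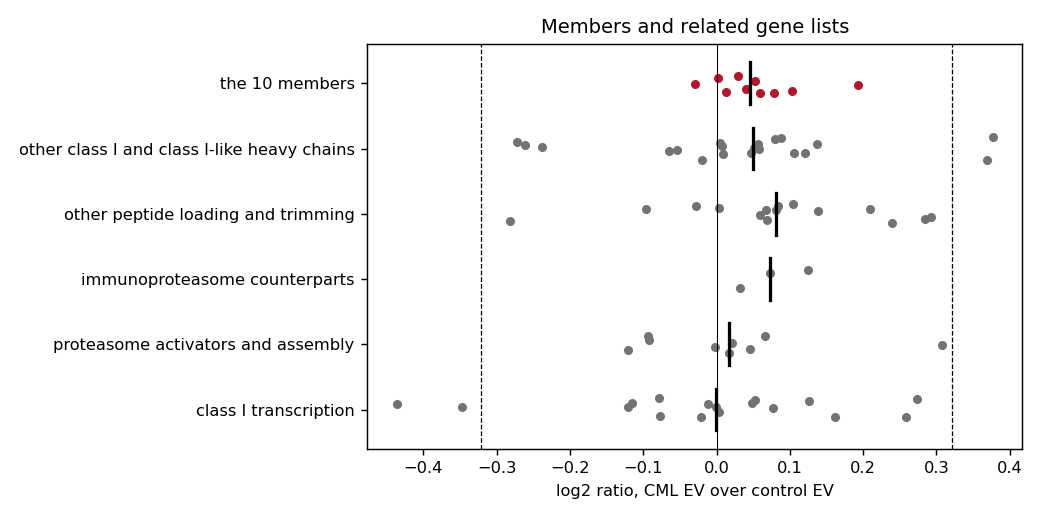
Ratio of CML EVs to control EVs on a log2 scale (horizontal axis) for each measured gene (points, spread vertically for view) in the 10 members and 5 related lists; black bars are medians and dashed lines mark 25% higher and 20% lower. The members lie within the narrow span from -0.03 to 0.19, and the transcription list spans -0.44 to 0.27.

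The labelled cell type was checked with marker genes. All 10 markers of stem and progenitor cells passed the background criterion on each array, and 9 of them had lower signals with CML EVs, with a median log2 ratio of -0.10. Neutrophil markers were also measured, 10 in number, with a summed signal of 602232 with CML EVs and 466898 with control EVs and a median log2 ratio of 0.55. The largest parts of the sums were Mpo (258638 with CML EVs and 213990 with control EVs) and S100a9 (158211 with CML EVs and 134970 with control EVs). Of the 10 neutrophil markers 8 were higher and 2 lower (Mmp8 and Cxcr2, both at -0.09). At least 25% higher were 6 of the 10, beside 5.01% of the 13412 genes. Of 10 monocyte and macrophage markers 8 were measured, with 6 higher and 2 lower. At least 25% higher were Ly6c2 (1.56-fold) and Vcam1 (2.25-fold). The lower ones were Mrc1, with signals of 624 with CML EVs and 787 with control EVs (1.26-fold lower), and C1qb, with a log2 ratio of -0.19. All 4 megakaryocyte markers had lower signals, and their log2 ratios had a median of -0.30. Of 7 T and NK cell markers 4 were measured, with 2 higher and 2 lower, led by Nkg7 at 6850 with CML EVs and 4427 with control EVs (1.55-fold), whereas Cd8a, Ncr1 and Klrb1c were not well above background on at least 1 array. Of 5 B cell markers with a probe only Cd79b passed, with a log2 ratio of 0.03. The part of these cell types in the class I values was not tested. Fewer cells of a type and less RNA per cell cannot be told apart in such bulk samples.

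**Figure D4:**
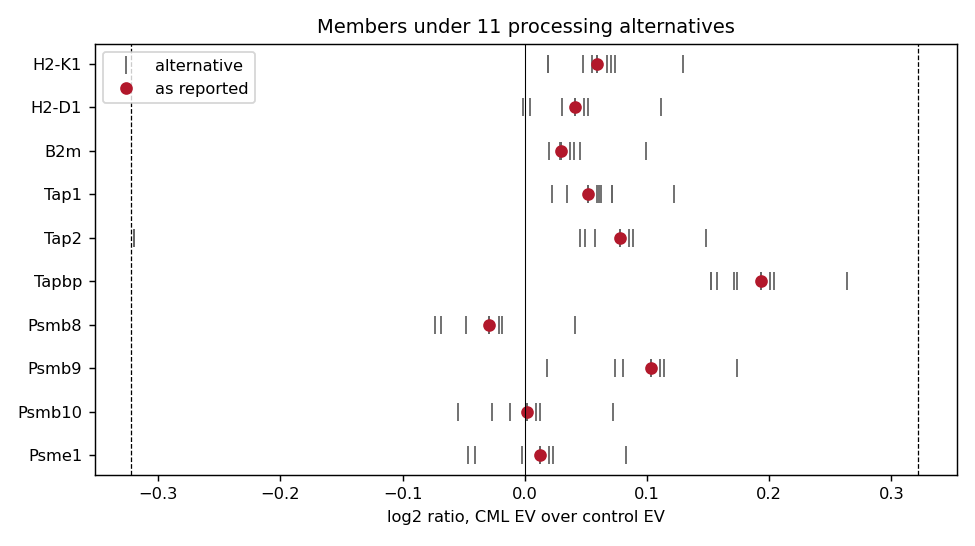
Ratio of CML EVs to control EVs on a log2 scale (horizontal axis) for each member as reported (red circles) and under 11 processing alternatives (grey ticks); dashed lines mark 25% higher and 20% lower. No tick crosses a dashed line, and the ticks of Tapbp all lie above 0.15.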

How the data were processed

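RNA of 2 cultures was measured on 2 one-colour Agilent arrays of 1 slide, with 59305 spots each that are not control spots. In the deposited scanner files, intensity had been background-subtracted by the authors with version 12.0.3.1 of Agilent Feature Extraction, the version that the processing notes give, and stands beside an error and flags for each spot. In the deposited value table each array's intensity was multiplied by a constant (0.947 for CML EVs and 0.942 for control EVs), with no log or centring. Here spots marked as outliers (88 with CML EVs and 95 with control EVs) were left out, no spot was saturated, and each array was scaled after the methods to a mean of 2500 over spots without the upper and lower 2%. Spots well above background were 53.3% with CML EVs and 54.4% with control EVs. The scanner files hold no gene names, so RefSeq accessions were matched without versions to the RefSeq table of GRCm38.p6, which named 32994 of 56604 probes. The files refer to another build, and no probe coordinates are given. After the methods, a gene took its value from the probe that was brightest with CML EVs. Listed symbols not in the table were matched through synonyms. The members and lists were chosen with earlier results of these arrays known. All members were named, and of each related list the 3 highest and 3 lowest genes, with every gene of the 3 lists for constitutive subunits, activators and assembly, and transcription, except 1 that is not reported here. Alternatives covered scaling, normexp with limma 3.58.1 (offset 50, on the median spot signal), the deposited values, probe choice, filters, fold and a loess trend (statsmodels 0.14.6, span 0.3). The planned comparison of proteins was not made, and no protein sequence was used here. The scaling and gene summary were tested on simulated data. Python 3.11.15 (pandas 2.3.3, numpy 2.4.6) and R 4.3.3 were used. The number of arrays limits the precision.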

Additional observations from a re-analysis of the deposited data

How the results depend on the processing

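No paired analysis was possible because only 1 array was made for each kind of EV. Under 11 alternatives none of 110 ratios of the members was at least 25% higher or 20% lower. Signs turned for H2-D1 and for Psme1 and Psmb10 with normexp (-0.0018, -0.046 and -0.027), for Psme1 and Psmb10 also with quantile normalization (-0.041 and -0.055) and with the loess trend removed, for Psmb8 with median scaling (0.041), and for Tap2 with the mean of its probes (-0.32), of which 1 is dim. Median scaling raises every gene alike, by 0.07, and gave medians of 0.12 for the members, 0.12 for other class I genes, 0.15 for peptide loading and trimming, 0.14 for the constitutive subunits, 0.088 for activators and assembly and 0.070 for transcription. With it at least 25% higher were 2 genes of peptide loading, 1 of activators and 2 of transcription, and 1 of transcription was at least 20% lower. The shares over all genes with this scaling were not counted. With normexp the median of peptide loading and trimming was 0.041 and that of activators and assembly -0.030, with 3 genes higher. At 1.1-fold, higher were 1 member, 2 other class I genes, 5 genes of peptide loading, 1 of activators and 3 of transcription. Lower at this fold were 3 other class I genes, 1 of peptide loading and 2 of transcription. Of the 13412 genes 17.3% were at least 1.1-fold higher, and the share lower by this fold was not counted. At 1.5-fold, 0 other class I genes were higher and 0 of transcription lower. With no filter on dim probes 27 of the 34 other class I genes with a named probe were higher, 4 of them at least 25%. These counts take in 14 genes not well above background on either array, and the shares over all genes without the filter were not counted. With the mean of all probes 2 other class I genes were at least 20% lower. The 2 lower transcription genes were 1 with quantile normalization, normexp, the mean of all probes or of those above background, the loess trend removed, or a mean log2 signal of at least 8. The cause was not tested where filters, folds or the scaling do not give it by construction. Naming by the files' own gene names was not run, since the scanner files have no such column.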
